A study of Homo sapiens with 6 samples.

Results

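Immediate early genes are transcribed within minutes of a stimulus and without new protein synthesis. Here they comprise 10 genes, FOS, FOSB, JUN, JUNB, JUND, EGR1, ATF3, IER2, DUSP1 and PHLDA1, chosen by gene symbol. All 10 were found among the 32917 genes of the expression table. They held 22 of 42618 listed m6A peaks and 16 of 19979 peaks that the authors tested between conditions. The cells were of the established line Kasumi-1, human myeloid leukaemia cells known to carry the RUNX1-RUNX1T1 fusion, with WT as the labelled genotype. They received 100 uM CoCl2, a hypoxia mimic, and 10 nM echinomycin, which blocks DNA binding by HIF-1, for 24 hours. Fragmented poly(A) RNA was pulled down with an antibody against N6-methyladenosine (m6A) to give 3 IP libraries, and 3 input libraries came from RNA before the pulldown, 1 of each per biological replicate. The authors' comparison set these cells against cells given CoCl2, so CoCl2 is common to both sides, and the libraries behind that other side were not analysed here.

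FOS, FOSB, JUN, JUNB and JUND encode subunits of AP-1, a dimeric transcription factor that binds DNA through basic leucine zippers, and ATF3 belongs to the same zipper class. EGR1 is a zinc finger transcription factor, IER2 a nuclear protein of the early response, DUSP1 a phosphatase that switches MAP kinases off, and PHLDA1 a pleckstrin homology domain protein linked to cell survival. Growth factor and stress signals reach these genes through MAP kinases, SRF with its ETS partners, and CREB, and their mRNAs are short-lived. The m6A mark is placed mostly at the consensus DRACH (A, G or T, then A or G, then AC, then A, C or T) and bears on mRNA decay. Antibodies against m6A also bind m6Am next to the cap, so a peak at a start site does not say which of these marks was bound.

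The regulatory sequence before the start site is shown for genes whose promoters carry the CRE core, the element that CREB family factors bind, or the CArG box of SRF. All promoter sequences are RefSeq's for GRCh38.p14 and cover 250 bases before the start. They were matched by symbol for all 10 genes. The CRE core TGACG was found on either strand in 8 of the 10 genes, against 21.2% of 35116 promoters, and it includes every full CRE. The full element TGACGTCA stood in DUSP1 and JUND, against 1.65% of promoters. The CArG box was found in EGR1 alone among the 10, with 2 copies, against 1.16% of promoters, and the AP-1 element TGANTCA in none of the 10, against 6.57%. Capitals mark the element, and each sequence runs 5′ to 3′ on the gene's strand.
EGR1, CArG box at 105 to 96 bases before the start, chr5:138465364-138465393, plus strand: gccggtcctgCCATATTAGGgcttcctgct
EGR1, CArG box at 83 to 74 bases before the start, chr5:138465386-138465415, plus strand: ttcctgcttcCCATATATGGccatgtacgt
DUSP1, CRE at 125 to 118 bases before the start, chr5:172771303-172771330, minus strand: gcagggcgggTGACGTCAccgccccgtc
JUND, CRE at 200 to 193 bases before the start, chr19:18281805-18281832, minus strand: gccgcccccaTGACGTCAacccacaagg
FOS, CRE core at 64 to 60 bases before the start, chr14:75278754-75278778, plus strand: gttgagcccgTGACGtttacactca
FOSB, CRE core at 60 to 56 bases before the start, chr19:45467926-45467950, plus strand: aaggggcgggTGACGtaagcagggg
JUNB, CRE core at 137 to 133 bases before the start, chr19:12791339-12791363, plus strand: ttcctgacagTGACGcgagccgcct
JUN, CRE core at 123 to 119 bases before the start, chr1:58784156-58784180, minus strand: gtctccatggTGACGggcgggcccg
IER2, CRE core on the opposite strand at 140 to 136 bases before the start, chr19:13150261-13150285, plus strand: cccccgccccCGTCAcgccaccatc
These matches describe letters and show neither binding nor activity. EGR1 also held the core, on the opposite strand, while ATF3 and PHLDA1 held none of these elements in the window. PHLDA1 has a RefSeq start 2156 bases inside the end given in the expression table, so its window is not that of the longest transcript.

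Peaks at the 5′ end of several genes began at or near the first transcribed base, and the next sequences show DRACH letters found there on the transcript strand. Of the first 50 bases after the RefSeq start, all 50 lay in a listed peak for JUN, JUNB, JUND, FOSB, IER2 and PHLDA1. For EGR1, 20 of the 50 did. At least 1 DRACH match in these 50 bases was found in 6 of the 10 genes, against 49.6% of all start sites. Its presence is thus about as common as elsewhere, with ATF3 counted over more than 1 start site. The matches of FOS and ATF3 lay in no listed or tested peak and are not shown. FOSB had 3 matches in its listed peak, and only the first is shown. Capitals mark the DRACH match.
JUNB, bases 2 to 6, in a listed peak, chr19:12791486-12791501, plus strand: gGGACCttgagagcgg
FOSB, bases 8 to 12, in a listed peak, chr19:45467996-45468017, plus strand: attcataAGACTcagagctacg
DUSP1, bases 6 to 10, in a tested peak, chr5:172771176-172771195, minus strand: gcgaaGGACAtttgggctgt
EGR1, bases 19 to 23, in a tested peak, chr5:138465487-138465511, plus strand: ccagcgcgcaGAACTtggggagccg
JUN, JUND, IER2 and PHLDA1 had no such match in the 50 bases although a listed peak covered them. Those peaks held 1047, 1899, 270 and 2640 exonic bases. The peak tables do not name their build. The gene ends given in the expression table coincided with the RefSeq start for JUN, JUNB, JUND, EGR1, DUSP1 and IER2.

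All 10 genes were present in input RNA after the combined treatment, and their levels spanned a 23.5-fold range. The lowest mean was well above 1 FPKM (FPKM is a fragment count scaled to gene length and library size, and 1 is used here as the limit for an expressed gene). JUNB had 91.9, 88.9 and 92.3 FPKM in input replicates 1 to 3, a mean of 91.0 ± 1.83 FPKM (SD, n = 3). JUN had 81.8, 81.3 and 86.5 FPKM, a mean of 83.2 ± 2.88 FPKM (SD, n = 3). IER2 had 67.9, 64.2 and 68.7 FPKM, a mean of 66.9 ± 2.44 FPKM (SD, n = 3). These 3 genes lay above 97.2% or more of the 12612 genes at 1 FPKM or more, and their ranges did not overlap one another. ATF3 followed with 25.7, 27.0 and 28.0 FPKM (mean 26.9 ± 1.11 FPKM, SD, n = 3). JUND had 22.6, 24.3 and 25.7 FPKM (mean 24.2 ± 1.57 FPKM, SD, n = 3). ATF3 was the higher of this pair in each of the 3 libraries, although its lowest library and the highest of JUND both round to 25.7 FPKM.

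The AP-1 subunit genes thus stood far apart, with FOS and FOSB below the 3 JUN family genes in every library. FOS had 8.72, 8.12 and 9.15 FPKM, a mean of 8.66 ± 0.518 FPKM (SD, n = 3). FOSB was the lowest of the 10, with 4.20, 3.54 and 3.88 FPKM and a mean of 3.87 ± 0.329 FPKM (SD, n = 3). The phosphatase gene DUSP1 lay between ATF3 or JUND and FOS. DUSP1 had 12.0, 10.5 and 13.1 FPKM, a mean of 11.9 ± 1.32 FPKM (SD, n = 3). PHLDA1 had 6.79, 7.04 and 7.19 FPKM (mean 7.01 ± 0.206 FPKM, SD, n = 3). EGR1 had 5.00, 4.61 and 5.80 FPKM (mean 5.14 ± 0.610 FPKM, SD, n = 3). EGR1 and FOSB were the 2 members under the median of 5.36 FPKM of genes at 1 FPKM or more.

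**Figure D1:**
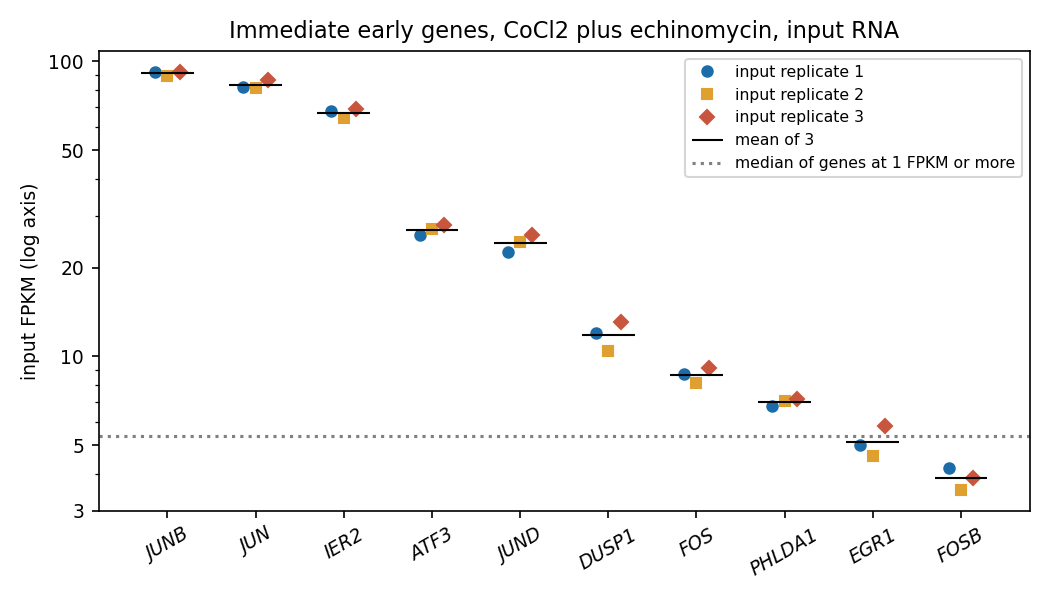
Input FPKM (log axis) of the 10 genes in the 3 input libraries of cells given CoCl2 plus echinomycin, with points for libraries, a bar for the mean and a dotted line for the median of 5.36 FPKM over genes at 1 FPKM or more. JUNB, JUN and IER2 stand above the rest, and the replicate 3 point is the highest for 9 of the 10 genes.

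One library moved with the levels of these genes. Input replicate 3 was the highest library for 9 of the 10 genes (all but FOSB), against 26.6% of genes at 1 FPKM or more. Input replicate 2 was the lowest for 7 of them, against 25.8%. All 10 were higher in replicate 3 than in replicate 2, by 2.14% to 26.0% with a median of 6.78%, whereas 40.0% of genes at 1 FPKM or more were higher and their median difference was -2.50%. The spread itself was not unusual: the coefficient of variation had a median of 5.06% over the 10 genes and 6.06% over genes at 1 FPKM or more. EGR1 at 11.9% and DUSP1 at 11.2% varied most, and both exceeded the upper quartile of 10.8%. In bulk RNA, a level shared by all cells and a higher level in some of them cannot be told apart. Depth is unknown from FPKM values, and whether handling or culture differed between replicates was not tested.

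Markers of the labelled cell type were present, and neither the fusion nor the identity of the line was tested. All 8 markers of the leukaemia (CD34, KIT, CD33, MPO, RUNX1, RUNX1T1, SPI1, PTPRC) were at 1.48 FPKM or more, up to 56.2 FPKM for MPO. Of 9 measured markers of other cell types, 7 were at or under 0.786 FPKM, with CD2 at 0. The exceptions were the T cell gene CD3D at 32.1 ± 2.30 FPKM and the epithelial gene EPCAM at 8.79 ± 0.149 FPKM (SD, n = 3 each). Their part in the levels above was not tested.

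Every one of the 10 genes carried a listed m6A peak after the combined treatment, against 79.7% of genes at 1 FPKM or more. The strength of a peak is given as the authors' fold enrichment of IP over input, a linear ratio with no error. The highest of the 22 peaks was in the 3′ UTR of JUN, the gene of the archetypal AP-1 subunit, on chromosome 1 at 58781388 to 58782434. Its fold enrichment was 25.4, and 98.8% of all listed peaks were weaker. A second JUN peak, labelled 5′ UTR, covered the first 1047 bases of the gene at 3.62. JUN thus carried strong enrichment late in its transcript and weaker enrichment over its start.

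All other peaks of the 10 genes were weaker than the JUN 3′ UTR peak. The strongest of them, in PHLDA1, still exceeded 90.9% of all listed peaks. PHLDA1 had a peak labelled 5′ UTR at 11.8 on chromosome 12 at 76029676 to 76032732, with 2640 exonic bases in 2 blocks, and a 3′ UTR peak at 2.64 that shares 479 of those bases. JUND had peaks of 7.07 and 6.43 on chromosome 19. The wider JUND peak, at 18279724 to 18281622, covered 1899 of the gene's 1929 bases and held all 500 exonic bases of the other, so the 5′ UTR label does not place it at the start. DUSP1 reached 6.67 in its 3′ UTR on chromosome 5 at 172768481 to 172769013 and 2.18 in its 5′ UTR. These 4 genes held the 5 peaks with a fold enrichment of 5 or more.

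The FOS family and the remaining genes had weaker peaks. FOS, which encodes the main partner of JUN, had 1 peak, in the 3′ UTR on chromosome 14 at 75280861 to 75281664, with a fold enrichment of 3.56. FOSB also had 1 peak, at its other end, in the 5′ UTR on chromosome 19 at 45467995 to 45468592 at 4.48. JUNB, the most abundant transcript of the 10, had 1 peak of 3.07 over its first 871 bases on chromosome 19 at 12791486 to 12792356. EGR1 had 4 peaks, of 2.03 at the start, 4.47 and 1.32 within exon 2 and 3.07 in the 3′ UTR. IER2 had 5, of 4.75, 3.80, 3.90 and 1.48 labelled 5′ UTR and 1.47 labelled 3′ UTR, and the pair of 3.80 and 3.90 share 479 bases. ATF3 had the lowest maximum of the 10, at 2.09 in a 2-block 5′ UTR peak, and also the weakest single peak, at 1.20 in its 3′ UTR.

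Set beside all listed peaks, those of the immediate early genes were on the weak side. Their median fold enrichment was 3.59, against 4.53 over all listed peaks, and 6 of the 22 exceeded that value. By region the medians were 3.71 for their 12 peaks labelled 5′ UTR and 3.32 for their 8 labelled 3′ UTR, against 4.42 and 4.40 for all peaks of the same label. These are descriptions, since peaks of 1 gene share transcripts and libraries. The FOSB peak lay within the span of an ERCC1 peak on the opposite strand but shared no exonic base with it, and no other member peak overlapped a peak of another gene.

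**Figure D2:**
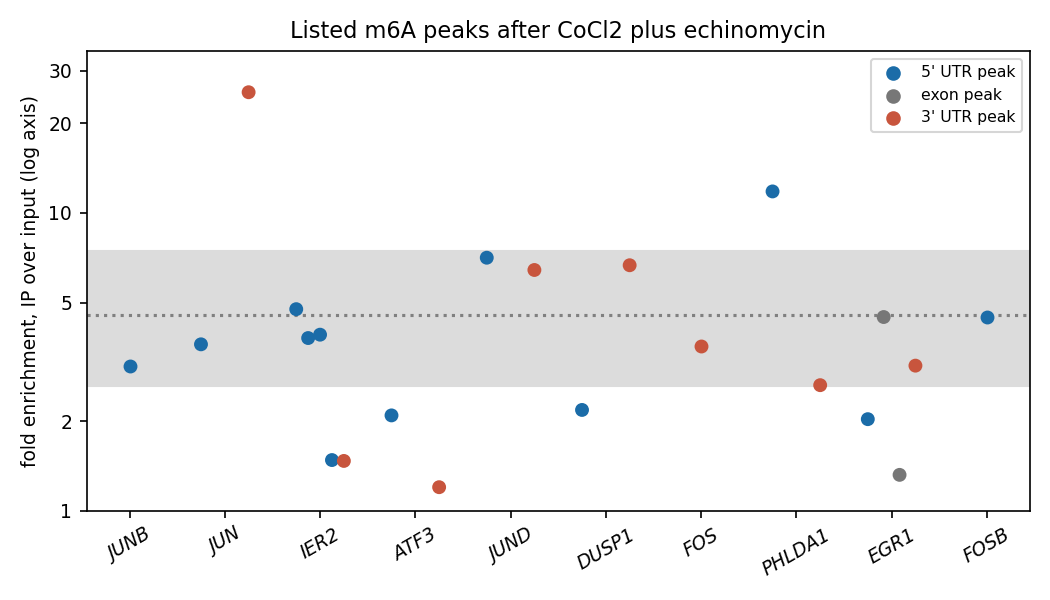
Authors' fold enrichment of IP over input (log axis) for the 22 listed peaks of the 10 genes after CoCl2 plus echinomycin, ordered by input level and, within a gene, from the 5′ to the 3′ end, with colours for the region label. The grey band spans the quartiles of all listed peaks (2.63 to 7.45) and the dotted line their median of 4.53, and only the JUN 3′ UTR peak at 25.4 and a PHLDA1 peak at 11.8 rise above the band.

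With echinomycin added to CoCl2, m6A enrichment fell on most tested peaks of these genes and rose only on the 5′ part of IER2. Of the 16 tested peaks in the authors' deposited table, 12 fell, 3 rose and 1 did not pass the authors' FDR of 0.05. Of all peaks tested, 68.9% passed in the authors' deposited table, 45.8% lower and 23.1% higher. The table holds 1 value per peak and no replicate values, so no spread between replicates can be set beside a change. Enrichment is relative to input, and RNA levels were not compared with CoCl2 here. JUNB and FOSB had no peak among those tested.

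By the peak of lowest p, all 8 tested genes fell, against 53.1% of 11126 genes lower, 22.8% higher and 75.9% changed in all. The authors' deposited table put their median at -0.71 on the log2 scale, against -0.50 for all genes by the same choice of peak. The size of the drops was ordinary: the 12 lower peaks of the authors' deposited table had a median of -0.71 and all lower peaks one of -0.70. Only EGR1 and PHLDA1 had a peak that passed the FDR and fell by more than 1 on the log2 scale in the authors' deposited table.

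The JUN 3′ UTR peak had the lowest FDR of all 19979 tested peaks. In the authors' deposited table its log2 fold change was -0.97 with a log10 FDR of -434, on chromosome 1 at 58781299 to 58782494, so enrichment fell by 49.1%. The fold itself was not extreme, as the authors' deposited table holds a lower log2 value for 19.4% of all tested peaks. This is also the most enriched peak of the 10 genes (25.4) in a transcript of 83.2 FPKM. The 5′ peak of JUN, whose span holds the start site described above, fell less in the authors' deposited table, at -0.24 with a log10 FDR of -18.1. Both ends of JUN were lower, the late peak by more on the log2 scale. Of all tested peaks, 60.0% had a lower log2 value than the 5′ peak, so its drop was smaller than that of most.

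The other AP-1 genes that could be compared were lower too, beside a median of -0.43 over all tested peaks in the authors' deposited table. Of all tested peaks, 33.6% had a lower log2 value than the FOS peak and 49.6% than that of ATF3. For the wider and the shorter JUND peak the shares were 48.7% and 30.7%. FOS fell by 0.69 on the log2 scale in the authors' deposited table in its only tested peak, in the 3′ UTR at 75280861 to 75281694, with a log10 FDR of -17.4. JUND, a subunit gene that is less inducible than its relatives, was at -0.46 over nearly the whole gene in the authors' deposited table (log10 FDR -48.0). The shorter JUND peak within it was at -0.74 in the authors' deposited table (log10 FDR -33.4), and these values share 500 bases. ATF3 fell by 0.44 on the log2 scale in the authors' deposited table, with a log10 FDR of -1.39, the weakest FDR of the 15 changed peaks and past 0.05 but not 0.01.

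EGR1 fell toward the end of its transcript. Its 3′ UTR peak on chromosome 5 at 138467630 to 138468407 was at -1.05 in the authors' deposited table (log10 FDR -20.5), so enrichment fell by 51.7%. The peak within exon 2 was at -0.57 in the authors' deposited table (log10 FDR -4.36). The peak at the start site, which holds the DRACH match printed above, was at -0.48 in the authors' deposited table with a log10 FDR of -0.387 and did not pass. All 3 values were below 0, and the start-site peak is the 1 of 16 without a call.

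DUSP1 fell at both ends, and here the 5′ end by more. In the authors' deposited table the 5′ UTR peak at 172770781 to 172771195 was at -0.95 (log10 FDR -8.75) and the 3′ UTR peak at 172768481 to 172769043 at -0.68 (log10 FDR -12.8). The tested 5′ peak reached the first transcribed base, while the peak listed after the combined treatment began 89 bases inside it. PHLDA1 had the lowest value of the 10 genes, -4.17 in the authors' deposited table, in a peak of 181 bases on chromosome 12 at 76032942 to 76033122 (log10 FDR -3.28). It is the 1 tested peak of the 16 that overlapped no listed peak, and neither of the PHLDA1 peaks listed after the combined treatment (11.8 and 2.64) overlapped a tested peak. Its -4.17 thus speaks for this short stretch near the far 5′ end and not for the gene's other peaks. The stretch lies 810 to 990 bases from the gene's 5′ end in the expression table. That is upstream of the RefSeq start at 76031776 used for the promoter window.

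IER2 changed in opposite directions along its transcript. In the authors' deposited table its first peak, with 270 exonic bases in 2 blocks between 13150411 and 13152102 on chromosome 19, rose by 2.06 on the log2 scale (log10 FDR -10.2), and 95.2% of all tested peaks had a lower log2 fold change. The next pair of peaks rose by 0.58 and 0.56 in the authors' deposited table (log10 FDR -2.72 and -2.63), and as they share 479 bases they count as 1 region. The 3′ UTR peak at 13154642 to 13154911 fell by 0.74 in the authors' deposited table (log10 FDR -19.4). Taking the peak of highest absolute fold change or the mean of its peaks turns IER2 to 2.06 or 0.62 in place of -0.74. These 3 peaks are all of the rises among the 16.

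**Figure D3:**
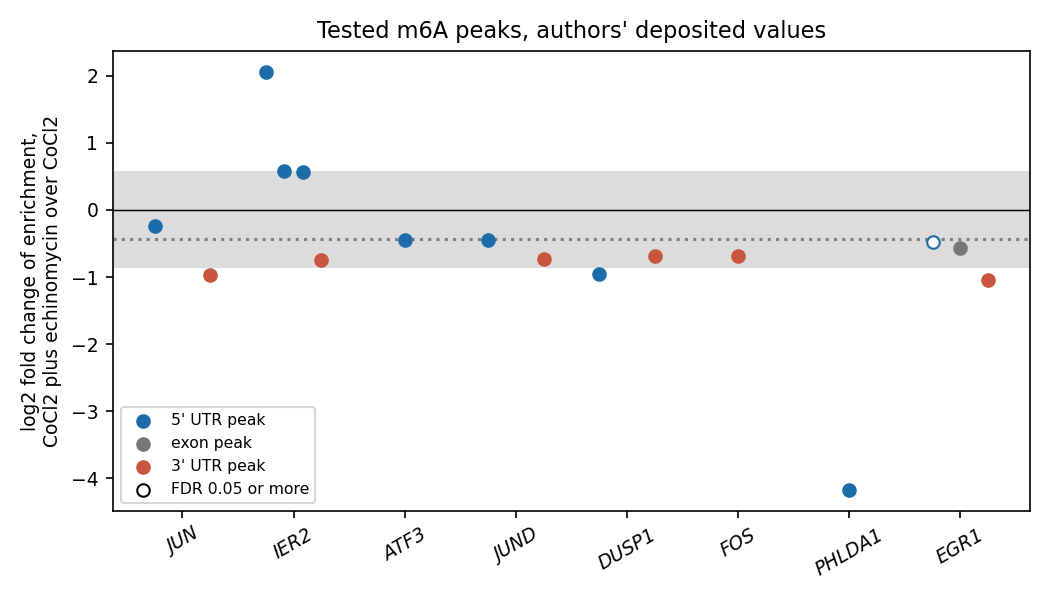
Authors' log2 fold change of m6A enrichment, CoCl2 plus echinomycin over CoCl2, for the 16 tested peaks of 8 genes ordered by input level and, within a gene, from the 5′ to the 3′ end, with an open point for the peak without a call. The grey band spans the quartiles of all tested peaks (-0.84 to 0.57) and the dotted line their median of -0.43, and only IER2 has points above 0.

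Every tested 3′ UTR peak of the immediate early genes fell, while of the 5′ peaks only those of IER2 rose. In the authors' deposited table all 6 of 6 peaks labelled 3′ UTR were lower, in JUN, JUND, FOS, EGR1, IER2 and DUSP1, with a median log2 fold change of -0.74. Of all tested 3′ UTR peaks, 53.7% were lower and 22.9% higher in the authors' deposited table, with a median of -0.45. Of 9 peaks labelled 5′ UTR, 5 were lower and 3 higher, with a median of -0.44, against 43.3% lower, 28.1% higher and a median of -0.35 for all such peaks of the authors' deposited table. The 3 higher peaks are all of IER2, and the overlapping pair among them shares 479 bases. The 9 also include the JUND peak that covers nearly the whole gene.

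For 5 genes both ends were tested, and in JUN, JUND, EGR1 and IER2 the 3′ UTR peak had the lower log2 fold change, DUSP1 being the exception. The median difference, 3′ minus 5′ end by the peak of lowest p, was -0.57 in the authors' deposited table for these 5 genes. Over 1929 genes tested at both ends the 3′ value was the lower in 57.0%, and the median difference was -0.11. The median is the value of EGR1, whose 5′ peak did not pass the FDR. The JUND peak labelled 5′ UTR spans nearly the whole gene and holds the 3′ one, so JUND does not compare separate ends. With 5 genes and no replicate values the difference from other genes was not tested.

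**Figure D4:**
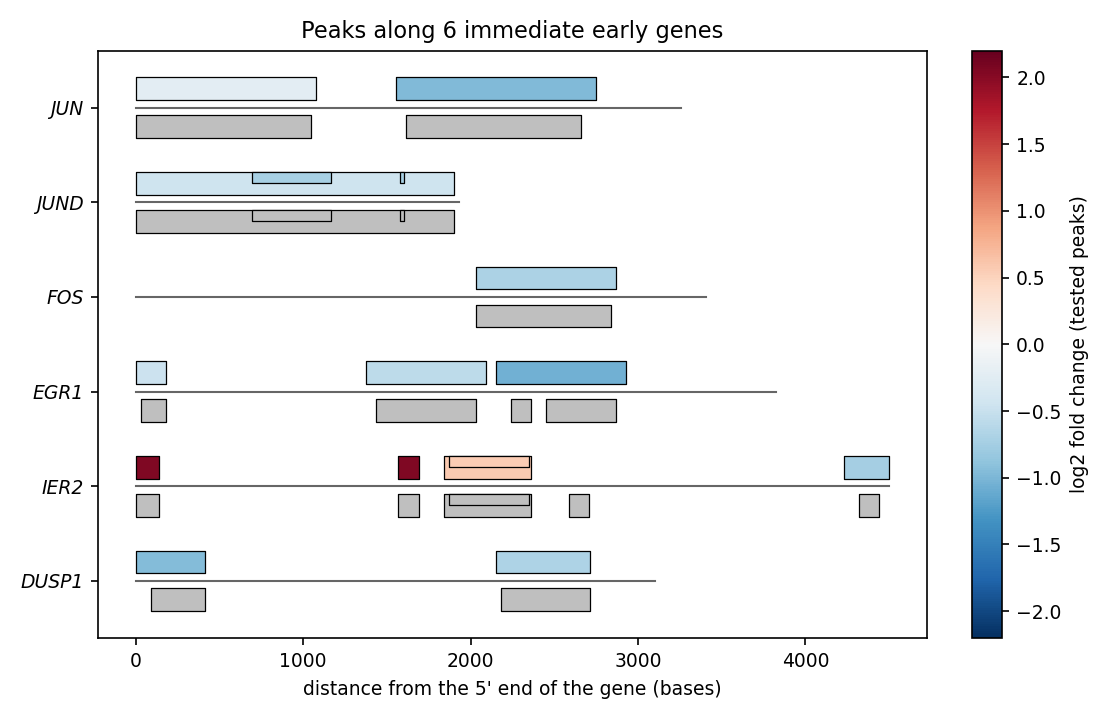
Exonic blocks of tested peaks (above each line, coloured by the authors' log2 fold change, CoCl2 plus echinomycin over CoCl2) and of peaks listed after CoCl2 plus echinomycin (below, grey) along 6 genes, by distance in bases from the 5′ end of the gene, with peaks that share bases with a wider one drawn inset. The 3′ UTR peaks are all blue (lower), and the first peak of IER2, in 2 blocks, is the darkest red at 2.06.

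Of 13 further immediate early transcription factor genes, 10 were tested, and in the authors' deposited table, by the peak of lowest p, 9 fell, 0 rose and 1 did not pass, against 53.1% lower and 22.8% higher over all genes tested. The exception was EGR3 (named after its value was seen) at 3.00, log10 FDR -0.337 and 0.230 FPKM. The list's median was -0.80 in the authors' deposited table, against -0.50 over all genes, and whether the list differs from other genes was not tested. IER5, an early response regulator, was at -0.78 (log10 FDR -298), KLF6, a Krüppel-like factor, at -1.24, and CSRNP1, a nuclear protein of the early response, at -1.05 in the authors' deposited table. MYC was at -0.83 in its 3′ UTR, but 2 of its 5′ UTR peaks rose, by 0.80 and 0.19, in the authors' deposited table. By input level IER5 led with 39.6 ± 1.01 FPKM, followed by KLF10 with 21.7 ± 0.900 FPKM (SD, n = 3 each). The IER5 peak was also strongly enriched, at 27.9, slightly above the 25.4 of JUN.

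Of 12 genes related to AP-1, 9 were tested, and 6 fell and 3 rose by the peak of lowest p in the authors' deposited table, against 53.1% lower and 22.8% higher over all genes tested. Their median was -0.39 in the authors' deposited table, against -0.50 over all genes. FOSL2, a FOS family gene, was at -0.57 with another of its peaks at 0.80 in the authors' deposited table. MAFG, a small MAF protein gene, rose by 1.06 (log10 FDR -105) in the authors' deposited table and stood near JUNB in input, at 90.7 ± 4.27 FPKM (SD, n = 3). MAFK was at -0.48 beside a peak that rose, and BATF, a zipper factor of lymphoid and myeloid cells, at -0.46 in the authors' deposited table. Counted as peaks, 8 of the 14 in this list rose and 6 fell, against 23.1% higher and 45.8% lower over all tested peaks. The 8 include peaks of MAFG and of ATF7 whose spans overlap.

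Of 20 early response genes outside the transcription factors, 15 were tested, and 11 fell, 2 rose and 2 did not pass by the peak of lowest p in the authors' deposited table, against 53.1% lower and 22.8% higher over all genes tested. Their median of -0.46 in the authors' deposited table was nearer 0 than the -0.50 over all genes. GADD45B, a stress-induced growth arrest gene, was at -0.67, DUSP5, a phosphatase of nuclear ERK, at -0.89, and the mRNA decay factor genes ZFP36 and ZFP36L2 at -0.41 and -0.67 in the authors' deposited table. The 2 that rose, named after their values were seen, were DUSP2 at 0.45 and the kinase gene SGK1 at 0.59 in the authors' deposited table. Input levels were highest for GADD45B, at 36.3 ± 2.64 FPKM, and ZFP36L1, at 28.0 ± 1.35 FPKM (SD, n = 3 each).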

How the data were processed

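The 6 libraries were grouped by title. The submitters' processing notes name HISAT2, fastp, ChIPseeker and HOMER without versions or roles. Which tool called peaks or computed FPKM, the build and how replicates were combined are not given in the sources used. Per the file headers, the authors deposited FPKM per gene and input library, a fold enrichment (a linear ratio) and a p-value per listed peak, and a log2 fold change and p-value per tested peak. The authors also deposited log10 FDR values, read as a score because some lie far below the usual log range or at minus infinity. A further 6 columns of the FPKM table, which match no sample here, were left out. Depth is unknown.

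Genes were matched by symbol. Lines repeating a gene and its positions (16 listed, 4 tested, none of the 10 genes) were counted once. Peaks were called changed where the authors' FDR was under 0.05. A gene is represented by its peak of lowest p. The direction, combined treatment over CoCl2, follows the table's name. Of peaks at a log2 of 3 or more, 364 of 365 overlapped a peak listed after the combined treatment, against 67 of 261 at -3 or less. No test across libraries was made, since only 1 condition has libraries here. The members, related lists and rule for names (all 10 genes, and per related list up to 4 changed genes by lowest p and 2 by input FPKM) were chosen with earlier results of these data known. Counting and overlap functions were tested on simulated data. Calculations used Python 3.11.15, numpy 2.4.6, pandas 2.3.3 and matplotlib 3.10.9.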

Additional observations from a re-analysis of the deposited data

How the results depend on the processing

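With a further limit of 1 on the absolute log2 fold change, 2 peaks of the 10 genes were lower and 1 higher. Without that limit the numbers were 12 and 3. Over all tested peaks, 11.2% were lower and 6.01% higher with the limit, against 45.8% and 23.1% without it. With a fold enrichment of 5 or more, the genes with a listed peak numbered 4 in place of 10. IER2 turned to 2.06 with its peak of highest absolute fold change and to 0.62 with the mean of its peaks. JUN moved to -0.61 in place of -0.97 with the mean of its peaks, and JUND to -0.74 in place of -0.46 with its peak of highest absolute fold change, both still lower. The other settings kept all counts within 1.5 times: an FDR under 0.01 (11 lower, 3 higher), peaks overlapping a listed peak (11 and 3) and, chosen after seeing the data, peaks that share bases counted once (11 and 2). Over all tested peaks an FDR under 0.01 gave 38.8% lower and 18.5% higher. Of all tested peaks that overlap a listed peak, 47% were lower and 25.4% higher. Without 1 input replicate in turn, 10 genes stayed expressed in each case, and the median coefficient of variation ranged from 4.53% to 4.82%, against 4.50% to 5.19% for all genes at 1 FPKM or more. The members' median was above that of all genes only without replicate 2. Every mean FPKM of the 10 genes moved by less than 1 SD. Leaving out 1 of 3 libraries cannot move a mean by more, so this does not show stability. No paired analysis was possible because the tables give no value per IP library. Peak values carry no replicate error, and their FDR may not measure the spread between replicates.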

Other observations

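Of 16 genes of the MAP kinase and SRF pathway upstream of the immediate early genes, 11 were tested, and by the peak of lowest p 6 fell, 3 rose and 2 did not pass in the authors' deposited table, with a median log2 fold change of -0.24. Over all genes tested, 53.1% were lower and 22.8% higher, with a median of -0.50 in the authors' deposited table, so the counts of this list are near the background. ELK4, an ETS partner of SRF, was at -0.82, MRTFA, an actin-regulated coactivator of SRF, at -0.51 and RPS6KA3, a kinase activated by ERK, at -0.60 in the authors' deposited table. MAPK14, the stress kinase p38 alpha, rose by 0.59 in the authors' deposited table. SRF itself, at 26.7 ± 0.279 FPKM (SD, n = 3), was at -0.21 with a log10 FDR of -0.821 in the authors' deposited table and did not pass. MAP2K1, the kinase of ERK, was the most abundant of the list at 36.3 ± 1.72 FPKM (SD, n = 3).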
